A study of Mus musculus with 4 samples.

Results

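Collagen genes were taken as every gene in the count tables whose symbol is Col, a number, a and a number. The rule found 44 genes of the 32285 listed, and each of the 44 had at least 1 UMI (unique molecular identifier, 1 per captured transcript) in the cells kept. The 44 fell into 11 fibrillar chains, 9 fibril-associated chains, 9 network chains, 6 chains of the beaded type VI family, 1 anchoring-fibril chain, 4 transmembrane chains, 2 multiplexins and 2 others. Their UMIs were summed per mouse and cell class and given as counts-per-million values (CPM), the share of the UMIs of that class. The libraries read 3' ends and count transcripts, so CPM is not scaled by gene length.

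The libraries came from whole prostate tumours of 4 mice, 2 in each genotype, dissociated with Collagenase A and then trypsin and profiled with 10x Genomics 3' chemistry. PSp mice carry PB-Cre, PtenL/L, SpopF133V and the mTmG reporter, and PCSp mice carry the same 4 alleles and Chd1L/L. PB-Cre is Cre recombinase under the probasin promoter, which is active in prostate epithelium, so stromal and immune cells are not where the alleles are meant to recombine. Castration was done in every mouse at an age of 9 months and tumours were taken 1 month later, so the series holds no tumour without castration.

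Collagens are trimers of chains that wind into a triple helix in the endoplasmic reticulum, where prolines and lysines are hydroxylated before secretion. Fibrillar types such as I, III and V build the tensile fibres of the interstitial stroma, type IV forms the sheet of every basement membrane, and type VI forms beaded microfilaments between them. Types VII and XVII belong to the epithelium itself: type VII makes anchoring fibrils under the basement membrane, and type XVII is a hemidesmosomal membrane protein of basal cells.

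Several type IV chains are assembled in fixed partnerships, and their genes sit head to head on opposite strands. The start sites of Col4a1 (chr8:11198423-11312826, minus strand) and Col4a2 (chr8:11312805-11449287, plus strand) lay 21 bases apart, so that the 5' ends of both genes overlap. Their start windows are shown because the chain ratios described further on compare these partners. The windows run from 250 bases before to 50 bases after each start, 5' to 3', from RefSeq on GRCm38.p6, and the capitals mark the 78 bases that both windows share, read on opposite strands.
Col4a1, chr8:11312777-11313076, minus strand: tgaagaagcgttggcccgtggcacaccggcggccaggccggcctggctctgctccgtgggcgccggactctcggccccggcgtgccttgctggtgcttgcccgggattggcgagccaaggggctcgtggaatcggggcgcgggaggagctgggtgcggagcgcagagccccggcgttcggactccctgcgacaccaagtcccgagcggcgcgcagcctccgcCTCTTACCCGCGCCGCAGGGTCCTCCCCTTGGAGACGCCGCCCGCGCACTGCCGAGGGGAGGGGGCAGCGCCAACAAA
Col4a2, chr8:11312555-11312854, plus strand: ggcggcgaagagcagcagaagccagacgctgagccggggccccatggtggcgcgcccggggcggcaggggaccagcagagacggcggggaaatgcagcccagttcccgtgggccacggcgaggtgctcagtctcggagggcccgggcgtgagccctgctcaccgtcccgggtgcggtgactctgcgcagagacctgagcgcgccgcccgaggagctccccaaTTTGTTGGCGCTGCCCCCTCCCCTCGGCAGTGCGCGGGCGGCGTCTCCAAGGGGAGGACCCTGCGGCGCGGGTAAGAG

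A further head-to-head pair is Col4a6 (chrX:141165403-141474076, minus strand) and Col4a5 (chrX:141475385-141689234, plus strand). RefSeq starts Col4a5 at 141475419, inside the GENCODE span given, and its start sites of the pair lay 1343 bases apart, so these windows share no base. They are shown beside the windows of Col3a1 and Col17a1, a main fibrillar gene of the fibroblasts and the leading collagen gene of the basal-like epithelium. Capitals in these 4 windows mark TATAAA as well as CCAAT and also TGANTCA on either strand.
Col4a5, chrX:141475169-141475468, plus strand: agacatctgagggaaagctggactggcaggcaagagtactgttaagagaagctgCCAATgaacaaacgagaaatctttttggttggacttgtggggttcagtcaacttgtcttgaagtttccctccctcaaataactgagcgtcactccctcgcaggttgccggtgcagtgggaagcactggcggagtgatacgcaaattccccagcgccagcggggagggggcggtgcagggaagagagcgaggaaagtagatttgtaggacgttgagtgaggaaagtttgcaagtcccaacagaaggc
Col4a6, chrX:141474027-141474326, minus strand: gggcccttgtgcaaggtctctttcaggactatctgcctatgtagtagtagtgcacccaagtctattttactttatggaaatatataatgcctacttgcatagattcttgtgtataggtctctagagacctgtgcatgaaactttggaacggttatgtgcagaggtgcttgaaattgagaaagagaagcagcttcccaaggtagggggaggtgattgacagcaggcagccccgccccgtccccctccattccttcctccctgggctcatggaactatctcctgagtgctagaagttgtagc
Col3a1, chr1:45311288-45311587, plus strand: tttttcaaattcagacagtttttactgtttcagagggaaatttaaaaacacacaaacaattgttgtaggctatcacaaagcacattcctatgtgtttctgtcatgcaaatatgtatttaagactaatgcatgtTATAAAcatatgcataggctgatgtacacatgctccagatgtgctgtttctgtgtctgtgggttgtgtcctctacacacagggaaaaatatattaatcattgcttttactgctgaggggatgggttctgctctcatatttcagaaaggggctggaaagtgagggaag
Col17a1, chr19:47691993-47692292, minus strand: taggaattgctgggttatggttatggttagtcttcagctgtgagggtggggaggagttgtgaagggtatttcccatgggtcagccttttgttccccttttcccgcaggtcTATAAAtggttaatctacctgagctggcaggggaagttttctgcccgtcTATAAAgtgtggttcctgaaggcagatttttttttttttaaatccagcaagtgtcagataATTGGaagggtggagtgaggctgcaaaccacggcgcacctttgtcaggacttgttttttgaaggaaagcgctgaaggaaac

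The RefSeq table held 38 start windows of 35 members. TATAAA, the letters of a TATA box, stood in 5 of the 38 windows (13.2%) and in 13.6% of all 32851 windows of the same length. CCAAT stood in 13 (34.2%, against 37.4% of all windows), and TGANTCA, the letters of an AP-1 site, in 1 (2.63%, against 7.81%). GGGCGG, the letters of a GC box, stood in 23 of the 38 (60.5%, against 35.7% of all windows). Col3a1 had 1 TATAAA and no GGGCGG, Col17a1 had 2 TATAAA and no GGGCGG, and the Col4a2 window had 3 GGGCGG and no TATAAA. These matches describe letters only.

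After filtering, 26702 cells remained, 5211 and 5900 from the PSp mice and 7708 and 7883 from the PCSp mice, and the libraries held 66874620 to 90839725 UMIs over all barcodes. Pairs of libraries shared 11 to 27 barcode sequences. Clusters were named from marker genes that held no collagen, and the collagens were left out of the genes used for clustering. Every marker list was highest in its own class for all its genes, except for 1 of 13 macrophage and 1 of 12 neutrophil markers. Chd1 in epithelial cells stood at 91.6 and 78.0 CPM in PSp mice and at 60.1 and 56.4 CPM in PCSp mice, and in fibroblasts at 47.0 and 38.7 against 49.2 and 56.4 CPM. A 3' count need not fall in the deleted part of the gene, so Chd1 is a limited check of the labels. The classes used here were 3252 fibroblasts, 209 smooth muscle cells and pericytes, 765 endothelial cells, 85 glial cells, 12594 epithelial cells, 2174 macrophages and monocytes, 5944 neutrophils, 1118 T and NK cells and 191 B and plasma cells. Subclasses were pericytes (106 cells), blood endothelium (317), lymphatic endothelium (258), basal-like epithelium (3875) and luminal-progenitor-like epithelium (3042). A level of a class against the rest is a description with no test, since the classes were built from the same cells. Where 4 values stand in a row, they belong to PSp mouse 1, PSp mouse 2, PCSp mouse 1 and PCSp mouse 2, in that order, and ± is the SD over the 4 mice unless it is named as a standard error (SE).

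Fibroblasts gave 54.0% and 44.7% of all collagen UMIs with the PSp genotype and 55.4% and 71.6% with PCSp (56.4% ± 11.2, SD, n = 4 mice). Basal-like epithelial cells gave 24.6% ± 5.1, at a summed collagen level of 538 CPM against 5429 ± 2415 CPM in fibroblasts. By mouse the fibroblast sum was 5271, 3234, 4382 and 8828 CPM, and that of pericytes 7112, 4153, 3991 and 3377 CPM. Pericytes were thus higher in both PSp mice and fibroblasts in both PCSp mice, an order that was not tested. The pericyte sums rest on 16, 27, 42 and 21 cells, and the fibroblast sums of the genotypes overlapped. Blood endothelium had a mean of 3691 CPM, glia 3271 CPM and lymphatic endothelium 1024 CPM, and below them lay basal-like cells, neutrophils (97.9 CPM), macrophages (87.1 CPM), luminal-progenitor-like cells (46.3 CPM) and T and NK cells (24.6 CPM). Shares of UMIs also follow how many cells of each type survived dissociation.

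Each class had its own collagen make-up. In fibroblasts the fibrillar chains made up 58.5% ± 6.6 of collagen UMIs, led by Col1a2 (19.5%), Col3a1 (19.3%) and Col1a1 (12.04%). In endothelium as a whole the network chains made up 83.5% ± 1.1, with Col4a1 alone at 53.2% ± 1.3. The network share was 86.4% ± 3.8 in blood endothelium and 54.0% ± 11.9 in lymphatic endothelium, where it ran from 43.2% to 70.7%. Basal-like epithelium put 38.2% ± 1.8 into transmembrane chains, nearly all of it Col17a1 (36.5% ± 1.7), and 1.73% ± 0.21 into fibrillar chains. The make-up of endothelium as a whole and of basal-like epithelium therefore varied by a few percentage points between mice. That of lymphatic endothelium varied more, and the fibrillar share of fibroblasts ran from 52.5% to 67.5%.

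**Figure D1:**
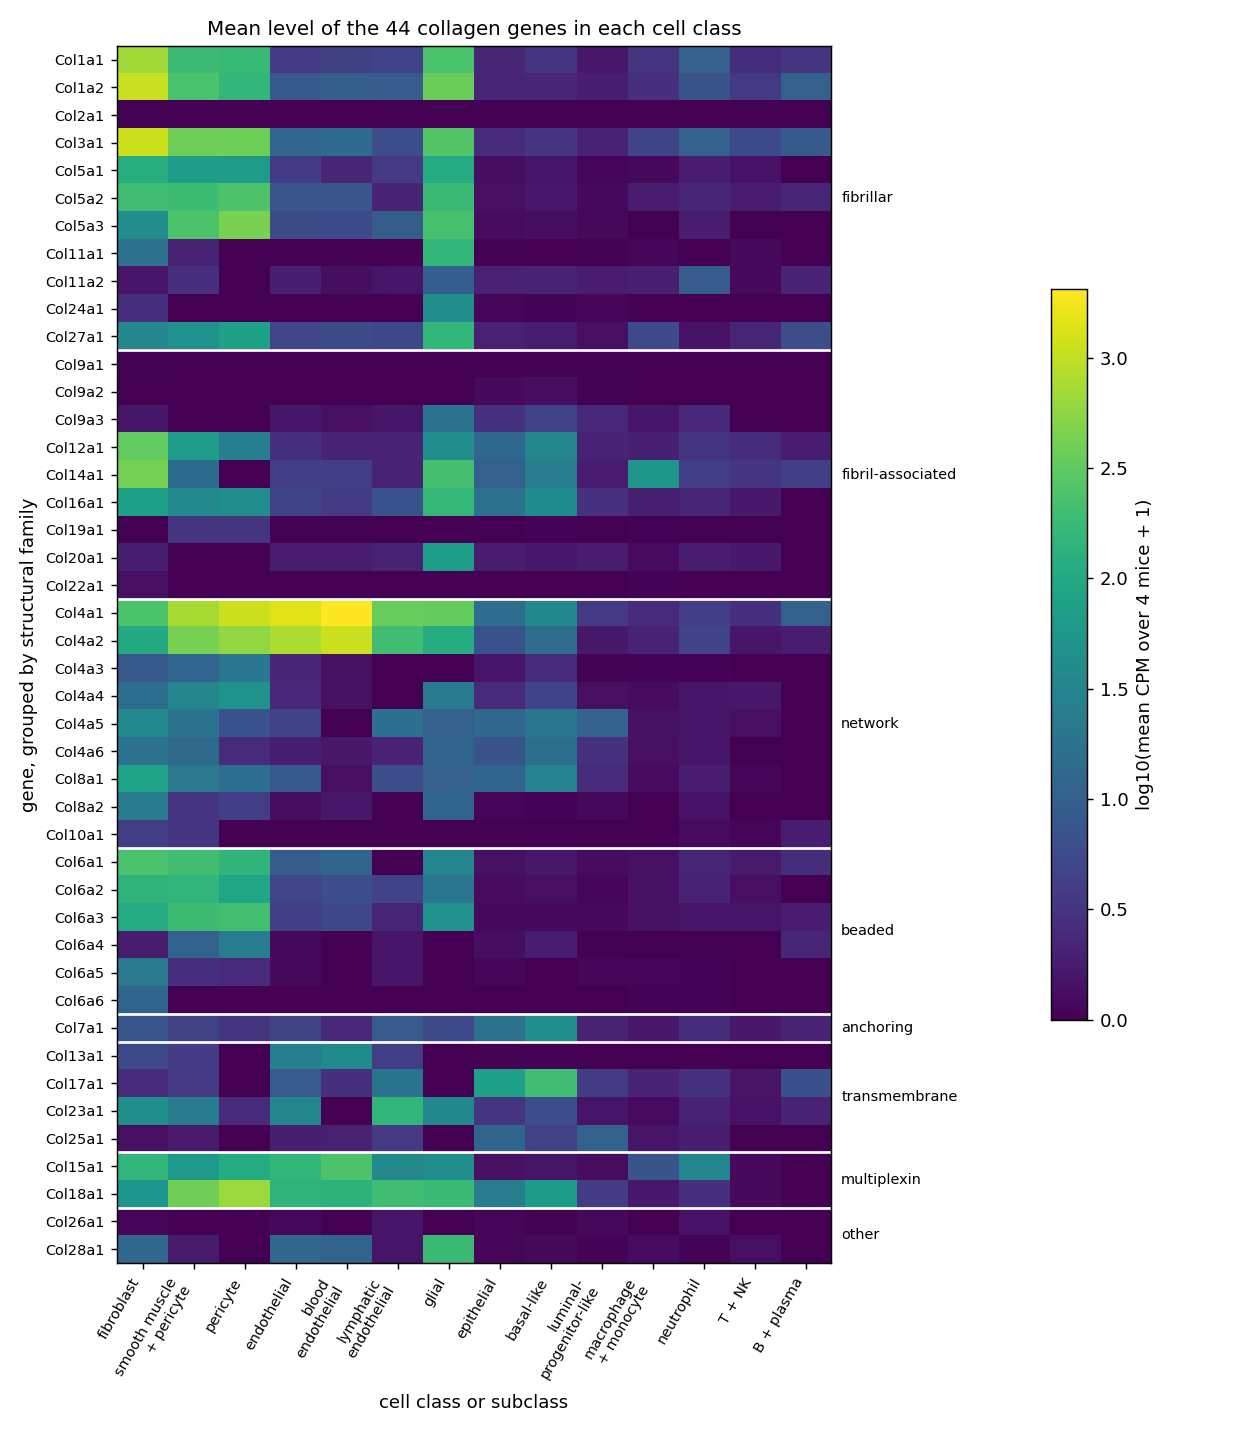
Heat map of log10(mean CPM over 4 mice + 1) for the 44 collagen genes (rows, grouped by structural family) in 14 cell classes and subclasses (columns). Bright cells mark the fibrillar chains in fibroblasts, Col4a1 and Col4a2 in endothelium and pericytes, and Col17a1 in basal-like epithelium.

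Of the 44 members, 17 had their highest mean in fibroblasts, 8 in glia, 7 in pericytes, 4 in blood endothelium, 3 in basal-like epithelium, 2 in lymphatic endothelium, 2 in smooth muscle and pericytes together and 1 in epithelium as a whole. A mean of 50 CPM or more in the highest class was reached by 23 members, and the other 21 stayed below it. In all kept cells, 8 members had under 100 UMIs, down to 1 for Col9a1 and 4 for the cartilage chain Col2a1. Values of the 85 glial cells are coarse, since 1 UMI there is worth 16.8 to 42.4 CPM, and in pericytes 1 UMI is worth 6.3 to 16.7 CPM.

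Among the fibrillar chains, Col3a1 (chr1:45311538-45349706), which forms thin fibres with type I, was at 1071 and 435 CPM in fibroblasts of PSp mice and at 804 and 2218 CPM in those of PCSp mice (1132 ± 769, SD, n = 4). Col1a1 (chr11:94936224-94953042), the alpha 1 chain of type I, followed the same order of mice at 644, 327, 477 and 1319 CPM. Col1a2 (chr6:4504814-4541544), its alpha 2 partner, was at 991, 668, 780.1 and 1825 CPM. For each of the 3 genes PCSp mouse 2 was highest and PSp mouse 2 lowest, and the values of both genotypes overlapped. The next class for Col3a1 was smooth muscle and pericytes, at a mean of 389 CPM, and glia followed for Col1a2 (364 CPM) and Col1a1 (233 CPM).

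The minor fibrillar chains, which nucleate and limit the width of fibrils, were not all highest in fibroblasts. Col5a1 stayed with the fibroblasts at 118, 86.3, 98.1 and 168 CPM. Col5a2 was at 363, 210.3, 233 and 167 CPM in pericytes and at 188, 101, 159 and 330.4 CPM in fibroblasts, and these ranges overlapped. Col5a3 (chr9:20770050-20815067) was at 445, 429, 415 and 468 CPM in pericytes against 43.3, 30.8, 37.8 and 49.9 CPM in fibroblasts, with no overlap over the 4 mice, and glia lay between (348, 182, 151 and 212 CPM). Type V chains thus differed in the class of their highest level. Col11a1 and Col27a1 were highest in glia, at 153 ± 129 CPM from 27 UMIs and 155 ± 37.4 CPM from 30 UMIs. The other 3 fibrillar chains stayed under 50 CPM in every class: Col24a1 reached 41.3 CPM in glia, Col11a2 8.71 CPM, and Col2a1 0.0387 CPM.

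Of the chains that decorate fibrils, Col12a1 (chr9:79598991-79718831) was at 313, 158, 302 and 548 CPM in fibroblasts and at a mean of 64.7 CPM in the next class, smooth muscle and pericytes. Col14a1 (chr15:55307750-55520803) was at 381, 239, 384 and 669 CPM in fibroblasts and at 209, 141, 286 and 212 CPM in glia, and pericytes held 0 of its UMIs. Both genes had the order of mice seen for the main fibrillar chains at its ends, PSp mouse 2 lowest and PCSp mouse 2 highest. Col16a1 was highest in glia (226, 101, 101 and 212 CPM), stood at 72.0, 71.7, 66.1 and 102 CPM in fibroblasts, and reached 34.0, 32.7, 54.6 and 37.9 CPM in basal-like epithelium. Col20a1 was at 71.0 ± 36.7 CPM in glia, from 13 UMIs, and at most 1.07 CPM in the next subclass. The other 5 fibril-associated members ran from 0.0522 CPM (Col9a1) to 17.3 CPM (Col9a3, in glia) in their highest class.

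The 9 network chains differed in the class of their highest level: Col4a1 and Col4a2 peaked in blood endothelium, Col4a3 and Col4a4 in pericytes and the other 5 in fibroblasts. Col4a1 was at 1708 and 1805 CPM in blood endothelium of PSp mice and at 2018 and 2629.5 CPM in that of PCSp mice, and at 1816, 955, 1064 and 786 CPM in pericytes. Col4a2 was at 893, 1159, 1065 and 1460.0 CPM in blood endothelium and at 785, 561, 535 and 518 CPM in pericytes. Lymphatic endothelium, whose vessels have a thin and broken basement membrane, had less Col4a1 (492, 284, 249.6 and 353 CPM), with no overlap with blood endothelium. Fibroblasts had 252, 178, 235 and 286 CPM of Col4a1 and overlapped with the lymphatic cells, and basal-like epithelium had 34.9, 22.4, 39.9 and 41.1 CPM.

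Col4a5 and Col4a6, the chains of the type IV network found under some epithelia and around smooth muscle, were low in all classes. Col4a5 was at 34.3, 42.9, 34.5 and 39.5 CPM in fibroblasts, 16.5, 16.8, 21.2 and 20.7 CPM in basal-like epithelium and 9.96, 5.83, 12.03 and 12.4 CPM in luminal-progenitor-like epithelium. These 3 ranges did not overlap. Col4a6 was at 14.6, 24.4, 14.5 and 12.3 CPM in fibroblasts and 9.85, 11.4, 19.7 and 17.4 CPM in basal-like epithelium, with overlapping ranges. Col8a1, a short-chain network collagen, was highest in fibroblasts at 72.0, 41.5, 91.0 and 125 CPM, and basal-like epithelium came next at 24.2, 17.9, 40.8 and 26.9 CPM. The remaining 4 network chains peaked at 3.15 CPM (Col10a1, fibroblasts), 18.9 CPM (Col4a3, pericytes), 23.1 CPM (Col8a2, fibroblasts) and 49.5 CPM (Col4a4, pericytes).

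The 3 main chains of type VI were shared by fibroblasts and mural cells. Col6a1 was at 254, 179, 194 and 282 CPM in fibroblasts and at a mean of 195 CPM in smooth muscle and pericytes. Col6a2 was at 172, 133, 154 and 149 CPM in smooth muscle and pericytes and at 161, 119.9, 114 and 172 CPM in fibroblasts, so neither class stood above the other. Col6a3, the large chain of the trimer, ranged from 480.4 CPM in pericytes of PSp mouse 1 through 237 and 81.8 CPM to 0 in PCSp mouse 2, where 3 UMIs would be worth 50.1 CPM, while fibroblasts stayed at 119.7, 76.5, 117 and 115 CPM. Of the chains that can replace it, Col6a5 and Col6a6 peaked in fibroblasts (20.04 and 10.8 CPM) and Col6a4 in pericytes (23.9 CPM).

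Col17a1 (chr19:47646344-47692094) was at 165 and 167 CPM in basal-like epithelium of PSp mice and at 254 and 199 CPM in that of PCSp mice, from 15135 UMIs. In luminal-progenitor-like epithelium it was at a mean of 2.90 CPM, and pericytes and glia held none of its UMIs. Col7a1 (chr9:108953586-108984875) was at 36.8, 32.8, 54.5 and 51.8 CPM in basal-like epithelium, from 3397 UMIs, against a mean of 6.52 CPM in fibroblasts. Among the main classes Col17a1 was highest in epithelium as a whole (72.1 CPM), and with a stricter cell filter of 1000 UMIs and 10% mitochondrial UMIs, which also changes the clusters, in smooth muscle and pericytes (91.0 CPM). With the cells kept here, both genes of the epithelial anchorage were highest in the same subclass. Both were higher in each PCSp mouse than in each PSp mouse, as were 26.1% of all genes tested in that subclass, and neither passed edgeR's adjusted threshold in the genotype comparison.

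The other transmembrane chains each had a different class. Col23a1 (chr11:51289920-51583918) was at 151, 119, 188 and 142 CPM in lymphatic endothelium, from 152 UMIs, and blood endothelium of all 4 mice held none of its UMIs. In blood endothelium 3 UMIs over the 4 mice would be worth 1.22 CPM, far under its level in lymphatic endothelium. Col13a1 was at 53.8 and 44.6 CPM in blood endothelium of PSp mice and at 21.8 and 30.6 CPM in that of PCSp mice. Col25a1 was the member of the epithelium as a whole, at 11.4, 12.3, 10.1 and 8.52 CPM.

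The multiplexins, basement membrane collagens with large interrupted helices, lay on both sides of the vessel wall. Col15a1 (chr4:47208161-47313167) was at 333, 167, 178 and 301 CPM in blood endothelium and at 169, 127, 108 and 188 CPM in fibroblasts, and these ranges overlapped. Col18a1 (chr10:77052178-77166548), the source of endostatin, was at 949, 701, 459.5 and 468 CPM in pericytes. In basal-like epithelium it was at 55.2, 53.2, 72.0 and 69.0 CPM and in fibroblasts at 47.9, 60.2, 48.1 and 59.97 CPM, ranges that overlapped. Col28a1, a collagen of peripheral nerve, was at 122, 141, 286 and 169.6 CPM in glia, from 35 UMIs, and at a mean of 12.04 CPM in fibroblasts.

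**Figure D2:**
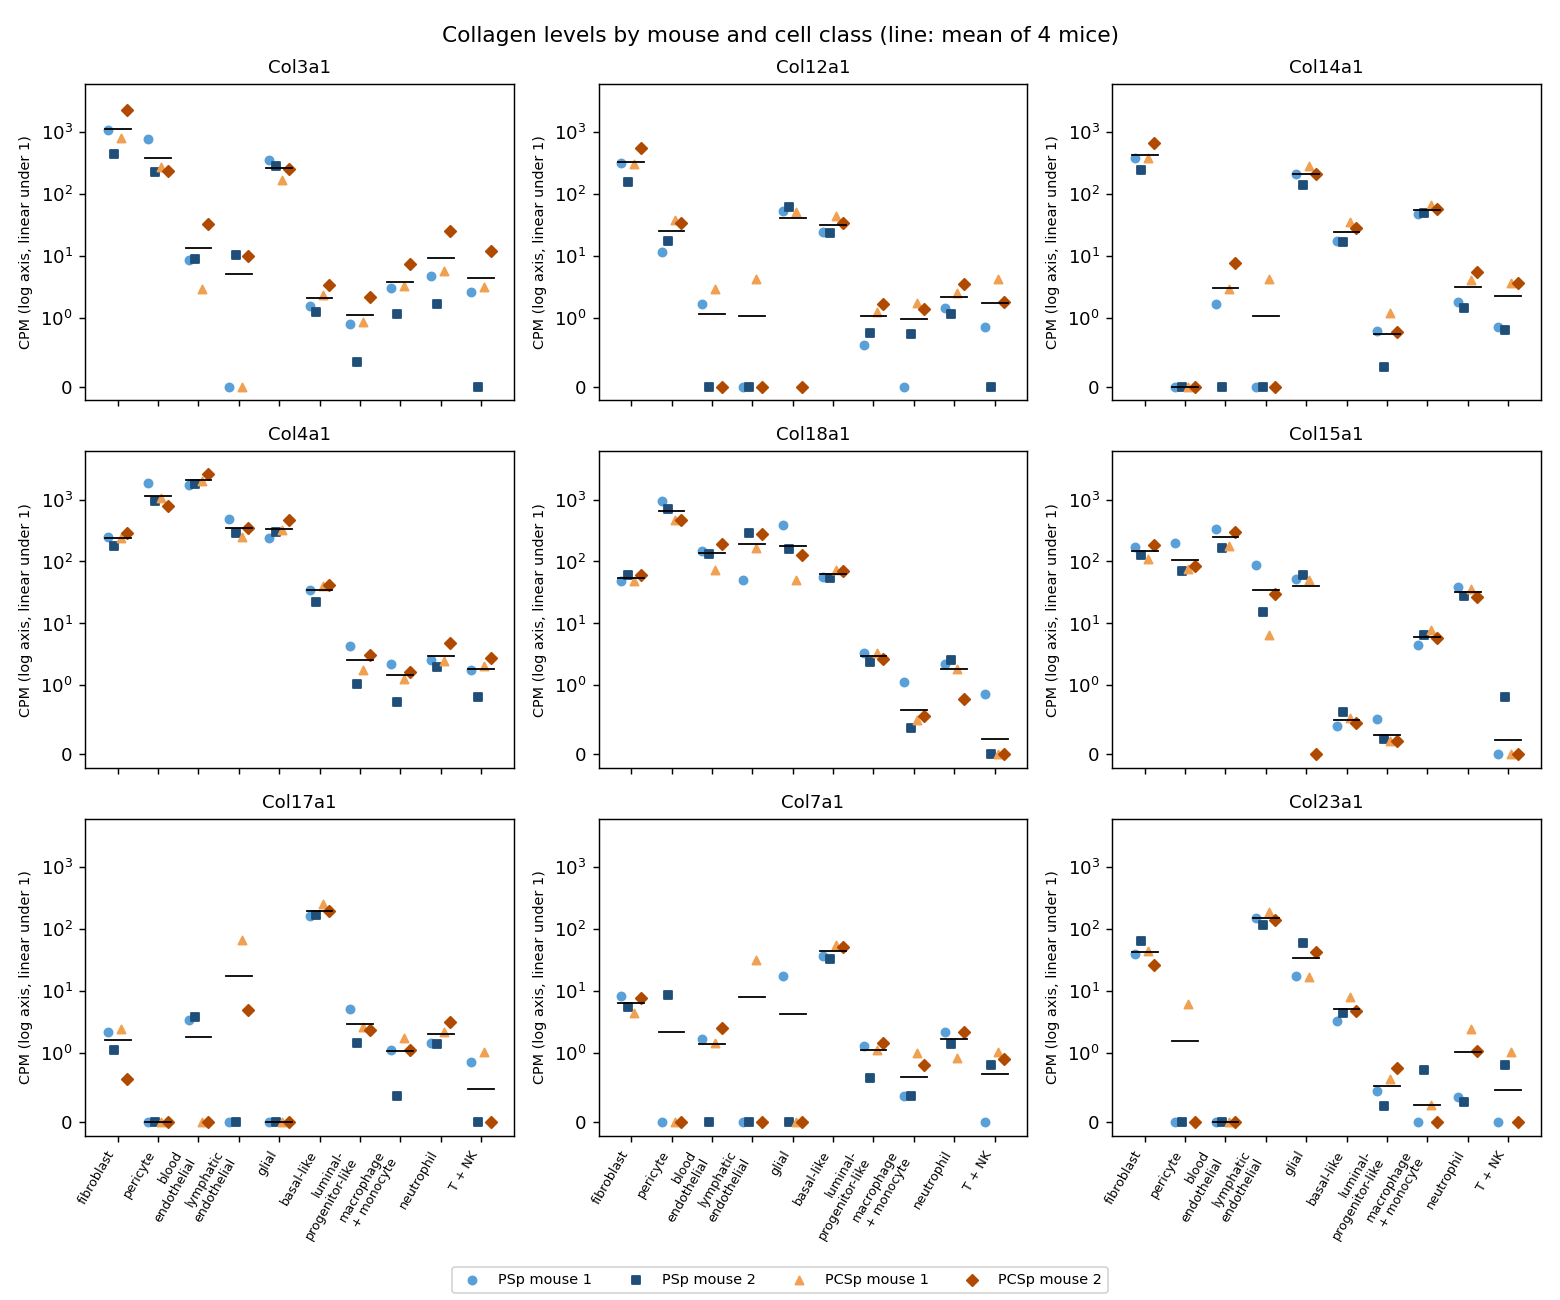
CPM of 9 collagen genes (panels; log axis, linear under 1 CPM) in 10 cell classes and subclasses, with 1 point per mouse and a line at the mean of 4 mice. Col3a1 spreads from 435 to 2218 CPM between mice in fibroblasts, while Col17a1 stays between 165 and 254 CPM in basal-like epithelium.

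Ratios of partner chains were compared within a class, from UMIs summed over the 4 mice. Col4a1 exceeded Col4a2 in fibroblasts by 2.25 times (2.17 to 2.34 over the 4 mice), in endothelium by 1.79 times (1.64 to 1.94), in smooth muscle and pericytes by 1.75 times (1.67 to 1.91) and in basal-like epithelium by 2.44 times (2.23 to 2.67). The ranges of fibroblasts and of basal-like epithelium lay above those of the endothelium and of the mural cells as whole classes, but not above those of 2 of their subclasses with fewer UMIs, lymphatic endothelium (1.5 to 2.34) and pericytes (1.52 to 2.31). Over these 4 classes the mean level of Col4a1 itself ran from 34.6 to 1415 CPM. Where few UMIs were found the ratio was less even, at 3.55 (2.19 to 10.75) in luminal-progenitor-like epithelium and 0.85 in neutrophils.

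For Col4a5 and Col4a6 the ratio was 2.35 in fibroblasts (1.76 to 3.20), 1.30 in basal-like epithelium (1.07 to 1.68) and 5.20 in luminal-progenitor-like epithelium (4.15 to 8.62), with no overlap between the 3. Col6a1 exceeded Col6a2 by 1.62 times in fibroblasts (1.49 to 1.70) and 1.27 times in smooth muscle and pericytes (1.06 to 1.57), and the ranges overlapped. The type I pair, whose trimer holds a single alpha 2 chain, had a Col1a2 to Col1a1 ratio of 1.53 in fibroblasts (1.38 to 2.04) and 1.17 in smooth muscle and pericytes (0.85 to 2.08), a range that encloses that of the fibroblasts. In basal-like epithelium that ratio was 0.54 (0.33 to 1.03). Capture of each transcript's 3' end can differ between genes, so a ratio is compared between classes and not read as a chain stoichiometry.

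**Figure D3:**
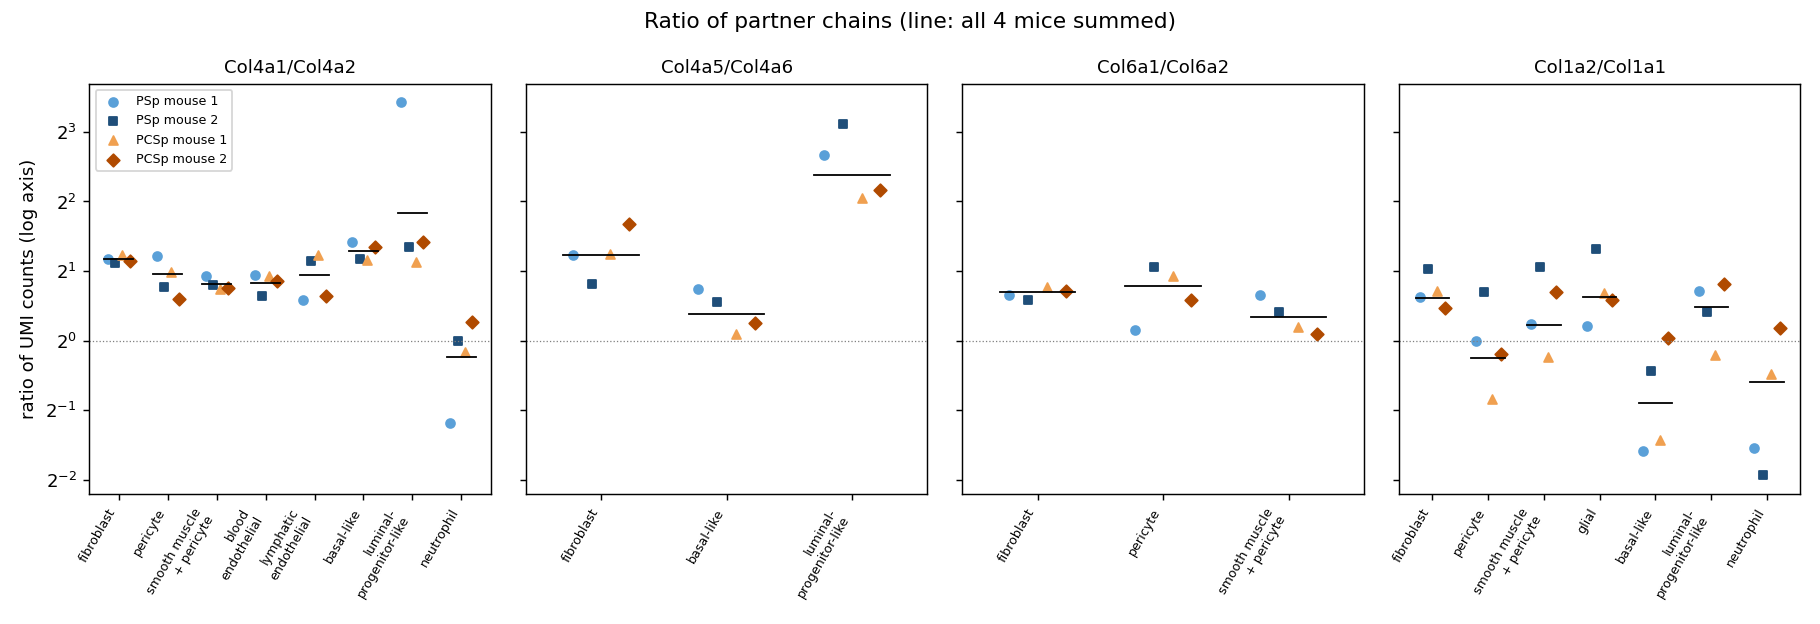
Ratio of UMI counts (log axis) for 4 pairs of partner chains (panels) by cell class, with 1 point per mouse and a line at the ratio of the summed counts. Col4a1/Col4a2 lies at 2.25 in fibroblasts and 2.44 in basal-like epithelium, and Col4a5/Col4a6 separates fibroblasts, basal-like and luminal-progenitor-like epithelium.

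Within the fibroblasts, collagens marked separate sub-clusters, which are described by their leading genes and carry no test. A sub-cluster of 374 cells led by Cdkn2a, Igfbp2, Wif1 and Tnc had Col12a1 at 1565, 1181, 1459 and 1354 CPM, where the other fibroblast sub-clusters had means of 15.4 to 189 CPM. The same cells had Col8a1 at 224, 219, 408 and 279.7 CPM and Col11a1 at 104, 68.3, 72.7 and 53.0 CPM. They made up 8.19% and 6.38% of fibroblasts with the PSp genotype and 11.5% and 17.01% with PCSp.

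A second sub-cluster of 162 cells, led by Bmp3, Ptx3 and Postn among others, had Col14a1 at 1757, 1662, 2029 and 2234 CPM, and Col3a1 at 3522, 1099, 2516 and 5655 CPM. Both genes were lowest in PSp mouse 2 and highest in PCSp mouse 2 there. Col14a1 varied less between mice than Col3a1. For Col14a1 both PCSp mice lay above both PSp mice, an order that was not tested. Another sub-cluster of 549 cells, led by the Wnt and hedgehog inhibitors Wif1 and Hhip, had Col23a1 at 218, 194, 235 and 211.5 CPM, where the others had means of 3.4 to 26.6 CPM. It also had Col4a5 at 98.9, 94.0, 76.2 and 117 CPM and Col4a6 at 61.8, 71.2, 56.6 and 68.5 CPM, and its Col3a1 was at a mean of 226 CPM. The Wif1 and Hhip cells were thus high in Col4a5, Col4a6 and Col23a1 and lowest in Col3a1 of the fibroblast sub-clusters listed here.

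The epithelium was uneven as well. A basal-like sub-cluster of 1827 cells led by Fst, Krt14 and Krt5 had Col17a1 at 410.5, 320.0, 402 and 382 CPM and Col7a1 at 90.8, 56.7, 84.2 and 95.9 CPM. A basal-like sub-cluster of 1110 cells led by Il24 and Krt16, the latter a keratin of activated stratified epithelium, had Col17a1 at 47.9, 48.7, 46.0 and 46.6 CPM. In the Krt14 sub-cluster the Col17a1 values of the genotypes overlapped, and in the Il24 sub-cluster those of the PCSp mice were the lower. Of the basal-like cells, the first sub-cluster was 37.3% and 44.8% with the PSp genotype and 61.7% and 43.5% with PCSp, and the second was 38.6% and 27.6% against 18.6% and 30.1%. Col25a1 was concentrated outside the basal-like cells, at 52.1, 44.6, 42.0 and 36.8 CPM in a sub-cluster of 348 cells led by Sbp and Spink5 and at a mean of 0.8 CPM in the Krt14 sub-cluster.

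In the blood endothelium, a sub-cluster of 244 cells led by Esm1, a gene of sprouting tip cells, had Col4a1 at 2540, 2339, 2350.5 and 3944 CPM, and 73 cells led by Ackr1 and Selp, genes of venules, had a mean of 394 CPM. Col13a1 was at 88.0, 60.3, 24.4 and 49.7 CPM in the Esm1 cells. Of the lymphatic cells, 138 led by Ccl21a, Mmrn1 and Reln had Col23a1 at 402, 144, 250.4 and 169 CPM. The other 120 lymphatic cells, with a median of 894.5 UMIs, were led by Ccl21a, Mmrn1 and Lyve1 and also by Krt18, Cldn4 and Cldn7, which are epithelial genes, and had Col23a1 at a mean of 17.2 CPM.

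Leukocytes and epithelial cells held most of the fibroblast collagens at a low level. Over the 16 members at 50 CPM or more in fibroblasts, T and NK cells held a median of 0.36% of the fibroblast level, and 13 fibroblast marker genes that are not collagens held 0.37%. The medians were 0.76% and 0.69% in neutrophils, 0.38% and 0.35% in macrophages, 0.17% and 0.14% in luminal-progenitor-like epithelium and 0.45% and 0.39% in basal-like epithelium. The median member thus stood near the level of other fibroblast transcripts, which is a statement about genes and not about collagen UMIs, of which a single member took the most in macrophages (Col14a1) and in basal-like epithelium (Col17a1).

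A few members stood above it. Col15a1 in neutrophils was at 39.4, 27.4, 36.3 and 26.4 CPM, from 420 UMIs, which is 23.1% of the fibroblast level (14.05% to 33.7% over the 4 mice), against 6.14 CPM in macrophages and 0.206 CPM in T and NK cells. A Col15a1 UMI was found in 5.55% of neutrophils and 0.0894% of T and NK cells, although the neutrophils were shallower (median 2151 against 4331.5 UMIs). With each cell thinned to 1000 UMIs the share was 2.57% of 5636 neutrophils and 0 of 1073 T and NK cells, which allows a share of up to 0.280%. Thinning left out 308 neutrophils and 45 T and NK cells that were shallower.

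Col14a1 in macrophages was at 48.1, 49.2, 67.1 and 56.2 CPM, from 728 UMIs, which is 14.8% of the fibroblast level (8.40% to 20.6%), against 2.24 CPM in T and NK cells. It made up 63.5% ± 4.0 of all collagen UMIs of the macrophage class. Thinned to 1000 UMIs, 4.98% of 1626 macrophages and 0.373% of 1073 T and NK cells held a Col14a1 UMI (15.8% and 1.16% unthinned, at median depths of 2996 and 4331.5 UMIs, with 548 and 45 cells left out). In basal-like epithelium Col18a1 was at a mean of 117% of the fibroblast level, with overlapping ranges and a value under the fibroblasts in PSp mouse 2. Col16a1 reached 53.2% there, Col8a1 35.8%, Col4a1 14.4%, Col4a2 13.5%, Col12a1 10.8% and Col14a1 6.22%.

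**Figure D4:**
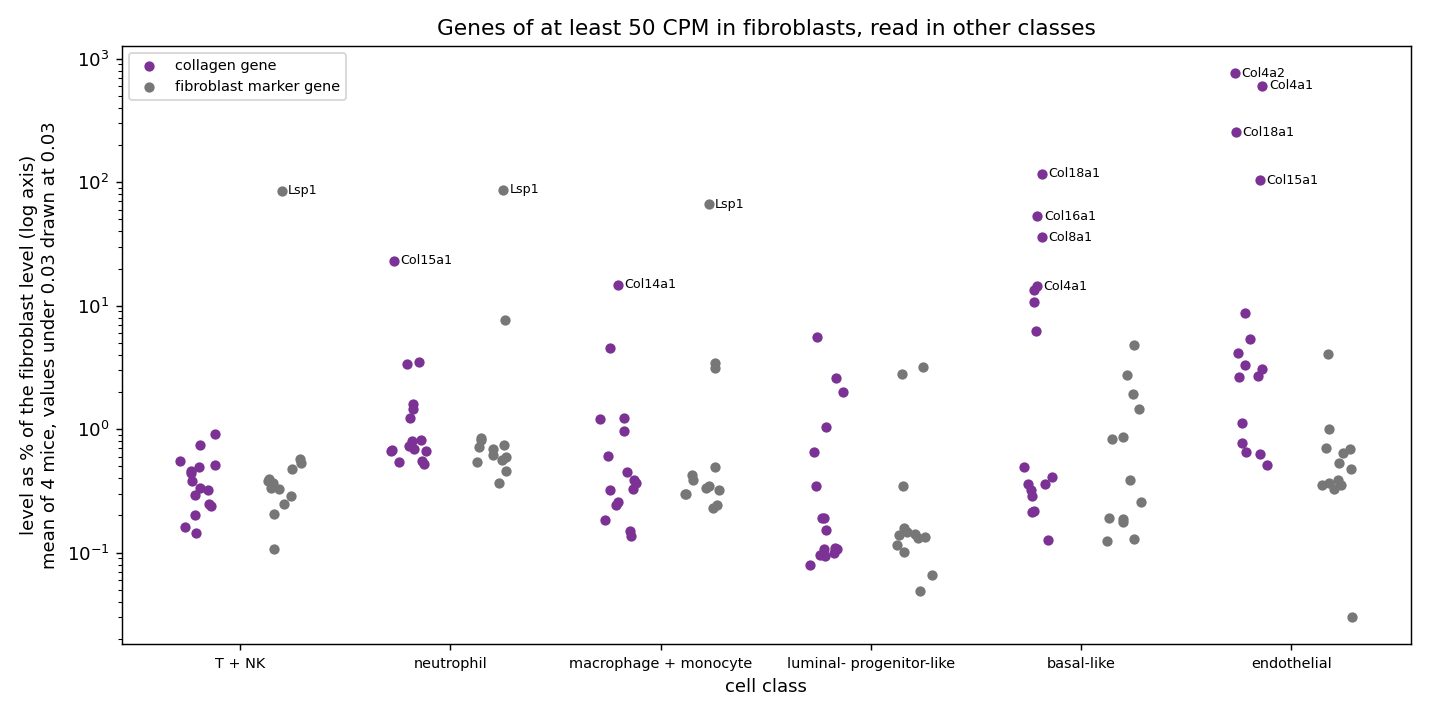
Level of 16 collagen genes (purple) and 13 fibroblast marker genes (grey) in 6 classes as a percent of the level in fibroblasts (log axis, mean of 4 mice). Outside endothelium most points of both kinds lie together. Col15a1 in neutrophils (23.1%) and Col14a1 in macrophages (14.8%) lie apart, as does the marker Lsp1, which leukocytes also express. Several collagens in basal-like epithelium also lie apart, up to Col18a1 (117%). In endothelium the median was 3.19% for the collagens and 0.47% for the markers.

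The genotype comparison asks what Chd1 deletion in the epithelium adds, and it sets 2 PCSp mice against 2 PSp mice within each class. By edgeR's quasi-likelihood test with Benjamini-Hochberg adjustment over all genes, 0 members passed 0.05 in any of the 8 classes fitted. The counts were 0 of 31 members in fibroblasts (0.00% of all genes passed), 0 of 14 in smooth muscle and pericytes (0.158%), 0 of 8 in endothelium (0.0343%), 0 of 31 in epithelium (0.00%) and 0 of 26 in basal-like epithelium (0.0288%). In macrophages 0 of 4 members passed (0.0799% of all genes), in neutrophils 0 of 7 (0.0876%; Col3a1 and Col1a2 with no filter, 1.08%, or when PCSp mouse 1 was left out, 4.19%), and in T and NK cells no member had counts enough for the test (0.473% adjusted and 8.35% unadjusted). At an unadjusted p under 0.05 the counts were 4 in fibroblasts (3.78% of all genes), 1 in smooth muscle and pericytes (5.56%), 2 in endothelium (6.51%), 9 in epithelium (7.73%), 15 in basal-like epithelium (15.3%), 0 in macrophages (6.58%) and 3 in neutrophils (8.73%). DESeq2 called 4 members in basal-like epithelium (1.20% of all genes). It called 0 in fibroblasts (0.0199%), smooth muscle and pericytes (0.00%), endothelium (0.0239%), epithelium (0.748%), macrophages (0.138%), neutrophils (0.0946%) and T and NK cells (0.186%). An exact permutation test of 2 mice against 2 cannot give a p below 0.333.

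In fibroblasts the smallest p-values belonged to Col8a1 and Col8a2, to Col14a1 and Col12a1, which are 2 of the 9 fibril-associated chains, and to Col24a1, and none passed the adjusted threshold. Col8a1 had a log2 fold change of 0.90 ± 0.26 (SE), Col8a2 1.08 ± 0.35, Col14a1 0.74 ± 0.29 and Col12a1 0.83 ± 0.35 (all SE), each with an adjusted p of 0.997, and Col24a1 had -1.12 ± 0.53. Both PCSp mice lay above both PSp mice for 3 of the 31 members tested (17.6% of all genes), Col8a1, Col8a2 and Col14a1, and under both for Col24a1 and Col4a6 (14.4%). Col8a2 stood at 15.6 and 13.4 CPM in PSp mice and at 20.3 and 43.0 CPM in PCSp mice. With equal cell numbers per sub-cluster across the mice, Col8a1 had 0.15, Col12a1 -0.087, Col14a1 0.69 and Col8a2 0.79. Without PCSp mouse 1, 8 members passed (0.956% of all genes), Col1a1, Col1a2, Col3a1, Col5a2, Col8a1, Col8a2, Col12a1 and Col14a1, a count in which PCSp mouse 2 stands alone for its genotype. Without PSp mouse 1 the single member to pass was Col8a1 (0.368%), and without PCSp mouse 2 it was Col10a1 (0.0722%). With no filter on low counts 9 members passed (0.783% of all genes), the same 8 and Col10a1. The weight edgeR gave to a spread shared by all genes, its prior degrees of freedom, was 5.68 with the filter and infinite without it. The unfiltered fit thus left little room for a gene's own spread between mice.

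In basal-like epithelium most differences were positive. Both PCSp mice lay above both PSp mice for 21 of the 26 members tested (26.1% of all genes), and below for 1 (22.3%). In the genotype comparisons that follow ± is the SE. Col7a1 had a log2 fold change of 0.59 ± 0.09 (adjusted p = 0.0843), Col14a1 0.88 ± 0.14 (0.0856), Col4a6 0.79 ± 0.14 (0.107), Col12a1 0.69 ± 0.14 (0.133) and Col18a1 0.36 ± 0.08 (0.158). DESeq2 called the first 4 of these 5, edgeR with no filter on low counts called 12 members (4.38% of all genes), and clustering with the collagens included called Col7a1 (0.465%). With sub-clusters matched in cell number, an alternative added after the data were seen, the values were 0.15 for Col7a1, 0.47 for Col14a1, 0.47 for Col4a6, 0.20 for Col12a1 and 0.05 for Col18a1. The summed level of 13 fibroblast markers in these cells was 779 and 907 CPM in PSp mice and 1585 and 1067 CPM in PCSp mice, with 10 of the 13 higher in each of PCSp mice and 0 of the 13 at 0. That of 13 macrophage markers was 1851 and 1864 CPM against 3169 and 2257 CPM, with 5 of the 13 higher in each of the PCSp mice and 0 at 0. Of all genes tested in these cells, 26.1% were higher in each of the PCSp mice. The summed neutrophil markers were also higher in PCSp mice (82.6 and 70.1 against 88.1 and 129.8 CPM). Summed T and NK markers were lower (47.3 and 43.7 against 36.4 and 43.2 CPM). Sums of smooth muscle and pericyte markers and of endothelial markers overlapped between genotypes. The part of RNA of these other cells in the differences was not tested.

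The whole epithelium gave Col4a6 a log2 fold change of 0.86 ± 0.21 (adjusted p = 0.476), Col4a4 0.74, Col14a1 0.87, Col23a1 0.67 and Col25a1 -0.37 ± 0.13. With sub-clusters matched in number these became 0.50, 0.12, 0.46, 0.29 and -0.28. Both PCSp mice lay above both PSp mice for 16 of 31 members (22.2% of all genes) and below for 3 (17.3%).

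In smooth muscle and pericytes Col6a3 had -1.17 ± 0.37 (adjusted p = 0.718), Col18a1 -0.47, Col6a1 -0.43, Col4a1 -0.32 and Col1a1 0.40. The PCSp pair lay under the PSp pair for 2 of 14 members (15% of all genes), Col6a3 and Col18a1, and above it for 0 (20.7%). Col6a3 passed without PSp mouse 2 (-1.59, adjusted p = 0.00425, edgeR; 0.702% of all genes passed), and without PCSp mouse 2 it was Col12a1 that passed (2.08, adjusted p = 0.000419; 0.888%).

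Endothelium held the largest fold change among the named members, with opposite signs for a pair of transmembrane chains. Col23a1 was at 12.2 and 19.3 CPM in PSp mice and at 57.9 and 39.3 CPM in PCSp mice, a log2 fold change of 1.63 ± 0.32 (adjusted p = 0.152). Col13a1 was at 39.8 and 31.1 CPM against 13.7 and 16.3 CPM, a log2 fold change of -1.27 ± 0.31 (adjusted p = 0.292). Neither gene's groups overlapped, which held for 18.3% of all genes upward and 17.2% downward. Col28a1 had 0.56, Col15a1 -0.35 and Col18a1 0.13. Lymphatic cells, which carry Col23a1, were 25.7% and 26.1% of the endothelium with the PSp genotype and 41.3% and 35.4% with PCSp. Their sub-cluster of 138 cells, the higher in Col23a1, was 6.94% and 14.5% of the endothelium with PSp and 23.8% and 21.1% with PCSp. Within lymphatic endothelium Col23a1 overlapped between genotypes (151 and 119 against 188 and 142 CPM). Col23a1 passed when PSp mouse 2 was left out (2.04, adjusted p = 0.0278; 0.606% of all genes passed) or PCSp mouse 2 (1.82, adjusted p = 0.0260; 0.416%), and Col23a1 and Col13a1 passed with no filter on low counts (0.902%). The summed level of 12 epithelial markers in endothelial cells was 368 and 388 CPM in PSp mice and 1021 and 660 CPM in PCSp mice, with 0 of the 12 at 0. Sums of fibroblast markers (123 and 102 against 197 and 161 CPM) and neutrophil markers (48.9 and 43.7 against 80.1 and 121 CPM) were also higher in PCSp mice. Those of macrophage (1570 and 1254 against 1457 and 975 CPM), smooth muscle and pericyte, and T and NK markers overlapped. Col23a1 itself was at 1.84 and 1.39 CPM in epithelium of PSp mice and 2.90 and 2.28 CPM in that of PCSp mice. The part of RNA of other classes in the endothelial values was not tested.

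**Figure D5:**
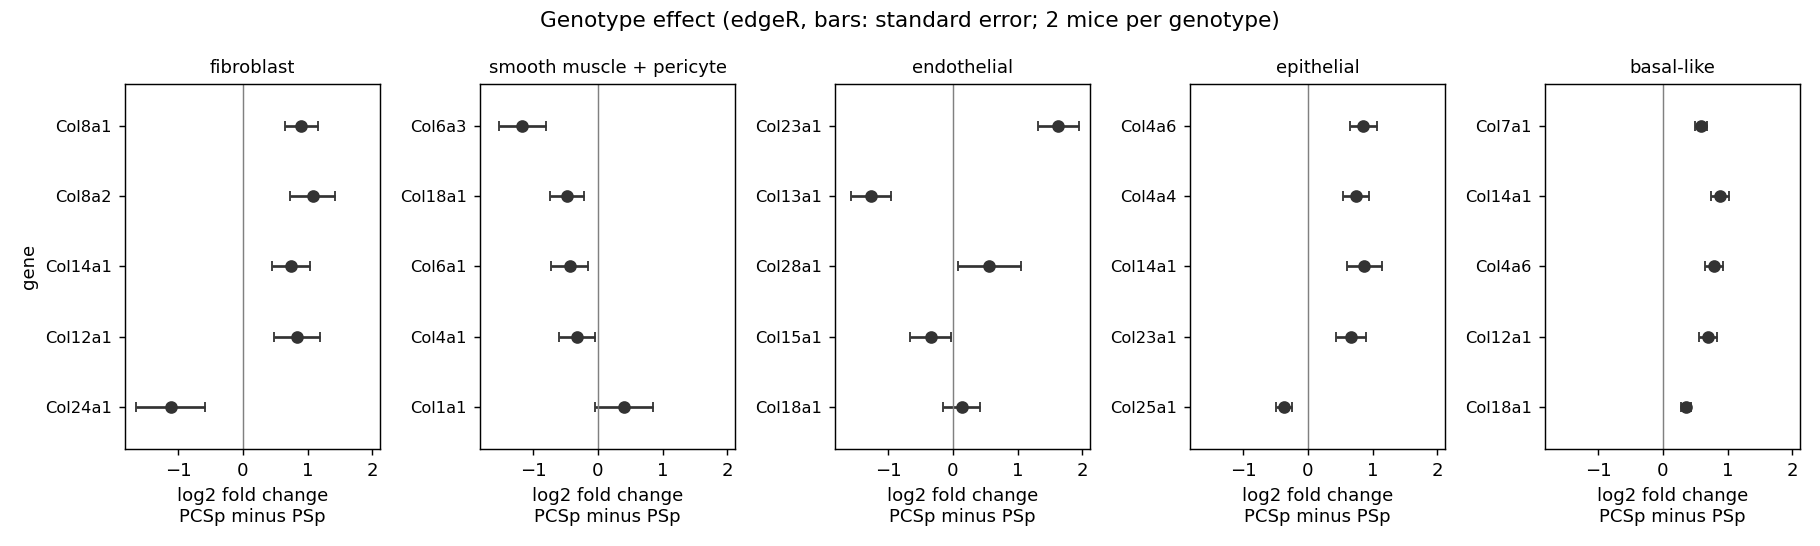
Log2 fold change, PCSp minus PSp, of the 5 tested collagens with the smallest p in each of 5 classes, from edgeR with bars for the standard error and 2 mice per genotype. None passed an adjusted p of 0.05, and in endothelium Col23a1 (1.63) and Col13a1 (-1.27) lie on opposite sides of 0.

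Whether the genotype effect differed between classes was tested with the class-by-genotype term and mouse as a block. Between fibroblasts and endothelium 1 of 31 members passed (0.0825% of all genes; 3 at an unadjusted p under 0.05, 5.58%): Col23a1, with a difference, fibroblast effect minus endothelial effect, of -2.18 ± 0.31 on the log2 scale (adjusted p = 0.0170, edgeR). Its level in fibroblasts was 40.2 and 63.3 CPM in PSp mice against 44.7 and 26.1 CPM in PCSp mice. Leaving out PSp mouse 1 gave it an adjusted p of 0.0601 and leaving out PCSp mouse 1 one of 0.0881, and it passed when the mouse left out was PSp mouse 2 (0.323% of all genes) or PCSp mouse 2 (0.311%), or with no filter (0.329%). Among fibroblasts Col23a1 was highest in the Wif1 and Hhip sub-cluster of 549 cells. That sub-cluster was 14.4% and 25.2% of fibroblasts with the PSp genotype and 16.6% and 13.5% with PCSp. The part of these shares in the difference was not tested. Of the 153 endothelial UMIs of Col23a1, 152 were in lymphatic cells. Leaving those cells out, an alternative added after the data were seen, removed nearly all of its endothelial counts and gave -4.23 ± 2.99 with an adjusted p of 1.00, so it does not test the gene's difference in the remaining endothelium. Between fibroblasts and smooth muscle and pericytes 0 of 32 members passed (0.123% of all genes), with 2 at an unadjusted p under 0.05 (4.32%), and Col3a1 passed when PCSp mouse 1 was left out (0.119%). Between fibroblasts and epithelium 0 of 38 passed (0.0121%), with 8 at an unadjusted p under 0.05 (4.61%). Leaving out PSp mouse 1 (1.17%) or filtering nothing (0.531%) called Col23a1 and Col4a6, and leaving out PCSp mouse 1 called Col23a1 and Col5a3 (0.837%). DESeq2 was not run for these interaction terms.

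Collagen has to be modified, folded, cut and crosslinked, and 40 genes of these steps and of collagen receptors were measured alongside. Of the 40, 20 had their highest mean among the main classes in fibroblasts, 6 in smooth muscle and pericytes, 5 in glia, 3 in endothelium, 2 in epithelium, 2 in neutrophils, 1 in macrophages and 1 in T and NK cells. Serpinh1, the collagen chaperone HSP47, was at 505, 371, 376 and 626 CPM in fibroblasts, at means of 387 CPM in smooth muscle and pericytes and 371 CPM in endothelium, and at 71.6 CPM in basal-like epithelium.

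The enzymes of modification and crosslinking had different classes of highest level. Lox, which crosslinks fibrillar collagen, was at 231, 165, 204 and 352 CPM in fibroblasts and at a mean of 1.30 CPM in endothelium. Loxl2, which acts on type IV collagen, was at 74.2, 68.7, 85.8 and 38.5 CPM in smooth muscle and pericytes and at 56.2, 45.1, 43.6 and 75.4 CPM in fibroblasts, with overlapping ranges. P3h2, a prolyl 3-hydroxylase that acts on type IV collagen, was at 69.6, 43.0, 42.9 and 67.3 CPM in smooth muscle and pericytes and at a mean of 1.53 CPM in fibroblasts. Plod1, a lysyl hydroxylase, was at 129, 152, 113 and 92.2 CPM in endothelium, and Plod2, which forms the crosslinks of fibrotic collagen, at 96.6, 66.4, 76.3 and 118 CPM in fibroblasts. Tgm2, a transglutaminase, was highest in neutrophils at 681, 729.8, 655 and 796 CPM.

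The receptors differed in their classes. Ddr2, a kinase that fibrillar collagen activates, was at 214, 224, 215 and 196 CPM in fibroblasts and at a mean of 0.303 CPM in epithelium, while its relative Ddr1 was at 59.7, 59.4, 59.3 and 62.9 CPM in epithelium and at a mean of 14.6 CPM in fibroblasts. Itga1, the integrin subunit that prefers type IV collagen, was at 552, 374, 572 and 471 CPM in smooth muscle and pericytes and at 335, 234, 347 and 240.0 CPM in endothelium. Itga2, the subunit that prefers type I, was at 76.7, 62.1, 72.3 and 82.9 CPM in epithelium and had its highest mean, 78.9 CPM, in the 85 glial cells.

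Between genotypes 0 of the genes tested passed the adjusted threshold in either direction by edgeR in any of the 8 classes, where 8 to 37 of the 40 had counts enough for the test. At an unadjusted p under 0.05 the counts were 1 of 37 in fibroblasts (3.78% of all genes), 1 of 17 in smooth muscle and pericytes (5.56%), 1 of 24 in endothelium (6.51%), 3 of 34 in epithelium (7.73%) and 6 of 31 in basal-like epithelium (15.3%). They were 1 of 16 in macrophages (6.58%), 4 of 12 in neutrophils (8.73%) and 1 of 8 in T and NK cells (8.35%). In fibroblasts, where 0.00% of all genes passed the adjusted threshold, their median log2 fold change was 0.17, with 26 above 0, beside a median of 0.00 over all genes tested. The 5 with the smallest p in fibroblasts were Itga1 (0.57 ± 0.23), P4ha3 (1.53 ± 0.67), Sparc (0.93 ± 0.47), P4ha2 (0.48 ± 0.26) and Pcolce2 (0.30 ± 0.17), each with an adjusted p of 0.997. Sparc, a collagen-binding protein of the matrix, was at 1423, 792, 1081 and 3177 CPM, the same order of mice as Col3a1.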

How the data were processed

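The values deposited by the authors are whole-number counts, 1 UMI count for each gene in each barcode. The submitters' processing notes name Cell Ranger 6.1.2 and mm10, and the counts carry no normalization. Barcodes were kept with at least 300 genes, 500 UMIs and at most 20% mitochondrial UMIs. Scrublet's own threshold marked 2, 0, 64 and 0 barcodes, so the highest-scoring 0.8% per 1000 barcodes were left out in its place (237, 308, 545 and 572). Cells were clustered with scanpy 1.11.5 (2000 variable genes, 30 components, 15 neighbours, Leiden resolution 1), with collagens kept out of the variable genes and of the markers. Ltf, a neutrophil marker that also led epithelial clusters, was exempted from the naming check after that was seen. Counts were summed per mouse and class and tested with edgeR 4.0.16 (TMM, filterByExpr, quasi-likelihood test, Benjamini-Hochberg) in R 4.3.3, in classes with at least 30 cells in every mouse, with DESeq2 1.42.0 as an alternative. The fitting code was tested on simulated data. Gene positions come from GENCODE M21 (GRCm38), where all 44 members were found by ID.

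A member is given by mouse where its mean reaches 50 CPM in its highest class, and for genotype the 5 members of smallest p are named in 5 classes. Col7a1, Col4a5, Col11a2 and the sub-cluster and leukocyte values were named after their values were seen. The members and lists were chosen with earlier results of these data known. Col24a1 and Col26a1 overlap another gene on the same strand, and the levels of Col4a1 and Col4a2 could share reads only at their 5' ends. Intervals over mice are SDs of 4 animals, and p-values rest on 2 animals per genotype. Without named batches in the labels, no batch was modelled. Start windows of Col1a1, Col2a1, Col4a3, Col5a2, Col9a3, Col12a1, Col14a1, Col22a1 and Col26a1 were not used here.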

Additional observations from a re-analysis of the deposited data

Results flagged for a closer look

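Col23a1 is given here because its genotype effect differed between fibroblasts and endothelium by the test of the class-by-genotype term, with a difference of -2.18 on the log2 scale (edgeR, adjusted p = 0.0170). In endothelium both PCSp mice (57.9 and 39.3 CPM) lay above both PSp mice (12.2 and 19.3 CPM), and in fibroblasts the values overlapped (44.7 and 26.1 against 40.2 and 63.3 CPM). The difference was past the threshold without PSp mouse 2 (-2.13) and without PCSp mouse 2 (-2.06), and not without either of the other mice. Among all genes 0.0825% passed this test. Lymphatic cells held 152 of the 153 endothelial UMIs of Col23a1 and made up 25.7% and 26.1% of endothelial cells with the PSp genotype, 41.3% and 35.4% with PCSp. Without them 0 of 30 collagens passed (0 also at an unadjusted p under 0.05), with -4.23 and an adjusted p of 1.00 for Col23a1 by edgeR. Within lymphatic cells the Col23a1 levels of the genotypes overlapped (151 and 119 against 188 and 142 CPM). The lymphatic sub-cluster of 138 cells, the higher in Col23a1, was 6.94% and 14.5% of endothelial cells with PSp and 23.8% and 21.1% with PCSp. The fibroblast sub-cluster of 549 cells highest in Col23a1 was 14.4% and 25.2% of fibroblasts with PSp and 16.6% and 13.5% with PCSp. The part of these shares in the difference was not tested.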

How the results depend on the processing

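No paired analysis was possible because the titles number the 4 libraries in 1 series across genotypes, so the groups share no replicate number. Counts of collagens passing an adjusted p of 0.05, 0 in each genotype comparison above, became 9 in fibroblasts, 2 in endothelium, 12 in basal-like epithelium and 2 in neutrophils with no filter on low counts. Dropping the filter also changed the prior degrees of freedom, so these counts do not show the effect of low counts alone. They went from 5.68, 9.14 and 8.14 to infinite in fibroblasts, endothelium and neutrophils, and from 4.34 to 69.5 in basal-like epithelium. Basal-like epithelium had 4 by DESeq2 and 1 with collagens among the variable genes. Leaving out each mouse in turn gave 0 to 8 in fibroblasts, 0 to 1 in smooth muscle and pericytes, 0 to 1 in endothelium and 0 to 2 in neutrophils (Col3a1 and Col1a2, without PCSp mouse 1). The lone mouse of a genotype is then assumed to vary like the other group. For the difference from fibroblasts, the ranges were 0 to 1 for smooth muscle and pericytes (Col3a1, without PCSp mouse 1), 0 to 1 for endothelium and 0 to 2 for epithelium (Col23a1 and Col4a6 without PSp mouse 1, Col23a1 and Col5a3 without PCSp mouse 1). With no filter the epithelial count was 2, and the endothelial count of 1 became 0 without lymphatic cells. Leaving those cells out removed nearly all endothelial UMIs of Col23a1, the member called, so that count does not test the remaining endothelium. The cause of the other changes was not tested.

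Single log2 fold changes that turned sign were Col12a1 in fibroblasts with matched sub-clusters (-0.087), Col18a1 in endothelium without lymphatic cells (-0.082), and 5 genes when 1 mouse was left out. Their values then ran from -0.033 to 1.27 for Col28a1 in endothelium (below 0 without PCSp mouse 1), from -0.80 to 0.18 for Col15a1 (above 0 without PSp mouse 1 or PCSp mouse 1) and from -0.44 to 0.62 for Col18a1 (below 0 without PSp mouse 1 or PCSp mouse 2). In smooth muscle and pericytes they ran from -0.64 to 0.10 for Col4a1 (above 0 without PSp mouse 1) and from -0.48 to 1.01 for Col1a1 (below 0 without PSp mouse 2 or PCSp mouse 1). Of the other values of single genes, 256 kept their direction and side of the threshold, 24 passed it and 3 fell short of it. The class of highest level was the same for all 23 members at 50 CPM or more at Leiden resolution 2 and with collagens among the variable genes, for 22 with no doublets left out (Col5a1 moved to glia, at 121 CPM) and for 20 with a stricter cell filter of 1000 UMIs and 10% mitochondrial UMIs. With that filter and among main classes, Col17a1 moved from epithelium to smooth muscle and pericytes (91.0 CPM), Col5a3 from there to glia (188 CPM) and Col6a2 from there to fibroblasts (141 CPM). Col7a1, under 50 CPM in epithelium as a whole, moved like Col17a1 (23.9 CPM). Also under 50 CPM, Col4a3 moved from smooth muscle and pericytes to fibroblasts (7.51 CPM). Col4a6 moved from fibroblasts to smooth muscle and pericytes (18.1 CPM). Under that filter smooth muscle and pericytes had too few cells for a fit. Clusters were built and named anew there, so the class need not hold the same cells. Whether it held epithelial cells was not tested. The 85 glial and 106 pericyte cells limit the levels given for those classes.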

Other observations

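The 2 leukocyte collagens were uneven within their own class. Col15a1 in neutrophils was at 57.4, 52.8, 61.2 and 60.6 CPM in a cluster of 1765 cells led by Prok2 and Ccl3 and at means of 14.5 to 23.5 CPM in the other 3 neutrophil clusters. Col14a1 in macrophages was at 68.0, 69.2, 88.2 and 82.1 CPM in a cluster of 500 cells led by the complement gene C1qa, and at 8.03, 6.24, 15.7 and 19.7 CPM in a cluster of 568 cells led by Retnla, F13a1, Clec10a and Ccr2, genes of monocyte-derived cells. Neutrophils also held Col11a2, at 9.496, 7.35, 10.6 and 4.04 CPM from 101 UMIs, where the mean of 8.71 CPM in glia came from a single mouse.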
